A study of Mus musculus with 12 samples.

Results

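A set of 215 mouse genes changed course at the promyelocyte, the stage of granulopoiesis that lies between the stem and progenitor pool of the bone marrow and the myelocyte. Of 19937 genes tested, 99 were expressed at a higher level in promyelocytes than in both the stage before and the stage after (peak genes, 0.497% of the genes tested) and 116 at a lower level than in both (dip genes, 0.582%). A gene was a member where promyelocytes differed in the same direction from LSK cells and from myelocytes, each time by a fold of at least 2 and with a Benjamini-Hochberg adjusted p under 0.05 in limma. The size of a peak or dip was the promyelocyte mean minus the average of the LSK and myelocyte means, on the log2 scale. Because these differences chose the members, the sizes, folds and p-values given below for LSK cells and myelocytes describe the members and are no further test of them.

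Affymetrix Mouse Gene 1.0 ST arrays were used to measure expression, with 3 arrays for each of 4 populations sorted by fluorescence-activated cell sorting from the bone marrow of untreated C57BL/6 mice. LSK cells (lineage negative, Sca1 positive, cKit positive) are the stem and early progenitor cells, and the neutrophil lineage passes from them through promyelocytes and myelocytes to granulocytes. The promyelocyte sort removed cells by antigens that included B220, CD3 and Sca1, and used cKit, CD34, Gr-1 and CD16/32 to choose among the rest, so antigens of monocytes, eosinophils and basophils were not among those used to remove cells. The age and sex of the mice, and whether the arrays of a population came from separate animals, were not given in the sources used here.

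During granulopoiesis the promyelocyte is the stage at which primary (azurophil) granules are filled. Their contents, myeloperoxidase and a group of serine proteases, are made on the rough endoplasmic reticulum, folded and glycosylated there and sent through the Golgi apparatus, and most of their genes are silenced at the myelocyte stage, when secondary granule proteins take over. Promyelocytes still divide, while LSK cells hold many quiescent stem cells and granulocytes have left the cell cycle.

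The sorted promyelocytes carried the markers of their name. Mpo, Elane, Prtn3 and Ctsg had promyelocyte means of 12.60, 11.77, 11.61 and 12.04 (log2 RMA values, the normalised scale used throughout), and Kit (9.75), Cd34 (10.39) and Fcgr3 (8.30) were also measured well above the level of dim signal. That level was 4.51, the 95th percentile of the means of 1194 olfactory and vomeronasal receptor genes, and a group mean at or under it is called dim. Ly6g, which encodes an antigen seen by Gr-1 antibodies on later neutrophils, had a promyelocyte mean of 5.01 against 12.31 in myelocytes, Mmp9 had 5.22 against 11.93, and Ltf, of the secondary granules, had 8.28 against 13.15. Arrays of 1 population correlated at 0.981 to 0.991 over genes and arrays of different populations at 0.807 to 0.977.

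Across all genes tested, 6469 (32.4%) had a promyelocyte mean above both neighbours, 5564 (27.9%) below both and 7904 (39.6%) between them. The neighbours contributed unequally: 321 genes (1.61%) were called higher and 549 (2.75%) lower in promyelocytes than in LSK cells, whereas 1968 (9.87%) were called higher and 1517 (7.61%) lower than in myelocytes. 72 of the 99 peak genes stood closer to LSK cells than to myelocytes, and 31 of the 116 dip genes had a higher mean in LSK cells than in myelocytes. Sizes ran from 1.06 to 3.86 (median 1.56) for peak genes and from -3.50 to -1.07 (median -1.70) for dip genes. In 95 of the 99 peak genes all 3 promyelocyte arrays lay above all 6 arrays of the neighbours, and in 108 of the 116 dip genes all 3 lay below them. The rule chose the members on these same arrays and so favours such a separation. Its share over all genes is not given here, and the counts only describe the members.

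**Figure D1:**
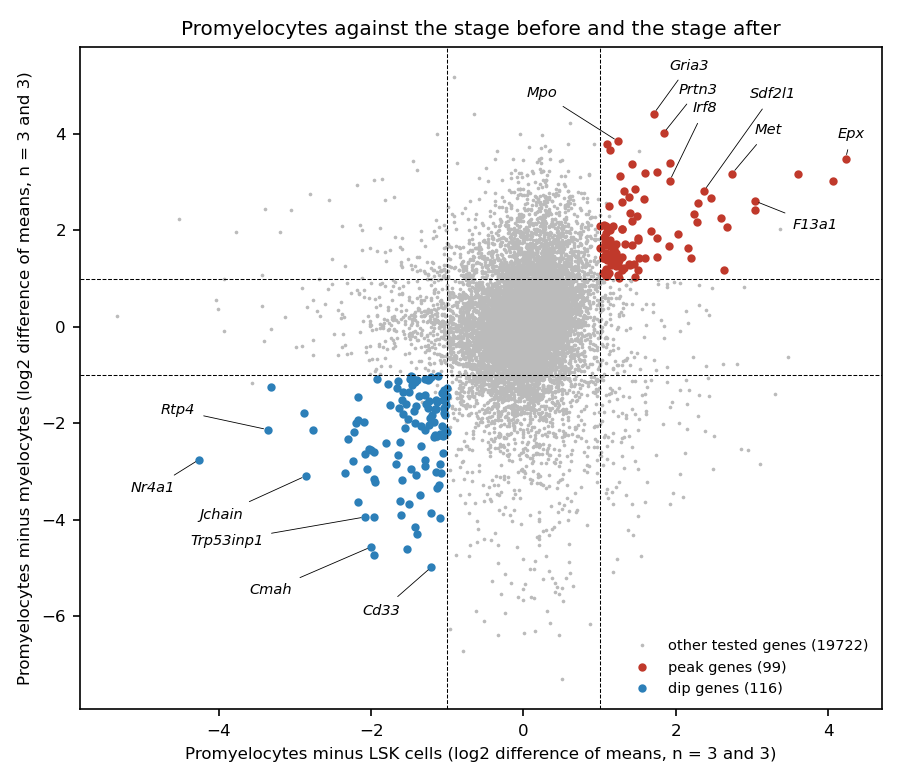
Each point is 1 of 19937 genes, placed by its promyelocyte mean minus its LSK mean (x axis) and minus its myelocyte mean (y axis), both as log2 differences of 3 arrays against 3, with dashed lines at a fold of 2. The 99 peak genes (red) fill the upper right corner and the 116 dip genes (blue) the lower left, and both sets reach farther along the y axis than most of their members do along the x axis.

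The proteins of the primary granule gave 6 peak genes among 14 measured (against 0.497% of all genes), and none was a dip gene. Their median size was 2.05, against 0.01 over all genes tested. Prtn3, which encodes proteinase 3, read 10.33, 10.47 and 8.51 on the LSK arrays, 11.74, 11.69 and 11.41 on the promyelocyte arrays and 7.41, 7.41 and 7.97 on the myelocyte arrays. All 3 promyelocyte arrays were above the other 6, with a 3.59-fold difference from LSK cells and a 16.2-fold difference from myelocytes (1.84 (SE 0.38, adjusted p = 0.00391) and 4.02 (SE 0.38, adjusted p = 4.85e-07) on the log2 scale). Mpo, the gene of myeloperoxidase and the most abundant enzyme of these granules, read 11.62, 11.99 and 10.47 on the LSK arrays, 12.74, 12.84 and 12.22 on the promyelocyte arrays and 8.70, 8.82 and 8.72 on the myelocyte arrays. Its fold over LSK cells, 2.36, was much smaller than its fold over myelocytes, 14.5, and the call against LSK cells was the less firm, at 1.24 (SE 0.37, adjusted p = 0.0385). Without the third LSK array the difference of Mpo from LSK cells was 0.79 (adjusted p = 0.212), and its call also ended when promyelocyte array 1 or 2 (adjusted p = 0.111 and 0.116) or myelocyte array 2 (adjusted p = 0.0517) was left out.

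Other members of the granule group had the same course. Prss57, a serine protease of the same granules, read 7.08, 7.08 and 5.54 on the LSK arrays, 8.90, 8.77 and 8.76 on the promyelocyte arrays and 6.32, 6.50 and 6.55 on the myelocyte arrays. Cst7, which encodes cystatin F, an inhibitor of the cathepsins that activate these proteases, read 8.30, 9.09 and 7.28 on the LSK arrays, 10.23, 10.07 and 9.62 on the promyelocyte arrays and 7.54, 6.48 and 6.26 on the myelocyte arrays. Plac8, a small cysteine-rich protein of myeloid cells, was 2.68-fold higher than in LSK cells and 4.55-fold higher than in myelocytes. For these 3 genes the promyelocyte arrays lay within 0.61 of each other and above every LSK and myelocyte array.

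Ms4a3, a membrane protein of granulocyte and monocyte progenitors, was the member of this group with the most uneven LSK arrays. It read 8.37, 9.20 and 5.26 on the LSK arrays, 10.98, 10.67 and 10.31 on the promyelocyte arrays and 7.84, 8.30 and 8.53 on the myelocyte arrays. LSK array 3 was more than 3 log2 units below LSK arrays 1 and 2, and the same array was the lowest of the 3 for the mean over all 14 granule genes (8.00, against 9.16 and 9.36). Elane (neutrophil elastase) and Ctsg (cathepsin G) were higher in promyelocytes than in myelocytes by 3.65 (SE 0.55, adjusted p = 6.02e-05) and 3.36 (SE 0.63, adjusted p = 0.000467), but their differences from LSK cells, 1.52 (SE 0.55, adjusted p = 0.0856) and 1.90 (SE 0.63, adjusted p = 0.0614), missed the threshold, and LSK array 3 was again lowest (8.66 and 8.09). When that array was left out, 5 granule genes were peak genes.

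In the granule group 11 of 14 genes were called higher and 1 lower than in myelocytes (9.87% and 7.61% of all genes). Against LSK cells 6 were called higher (1.61% of all genes). Granulocytes, which the rule did not use, held the lowest mean of the 4 stages for each of the 6 peak genes, from 4.44 for Cst7 to 7.87 for Plac8.

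**Figure D2:**
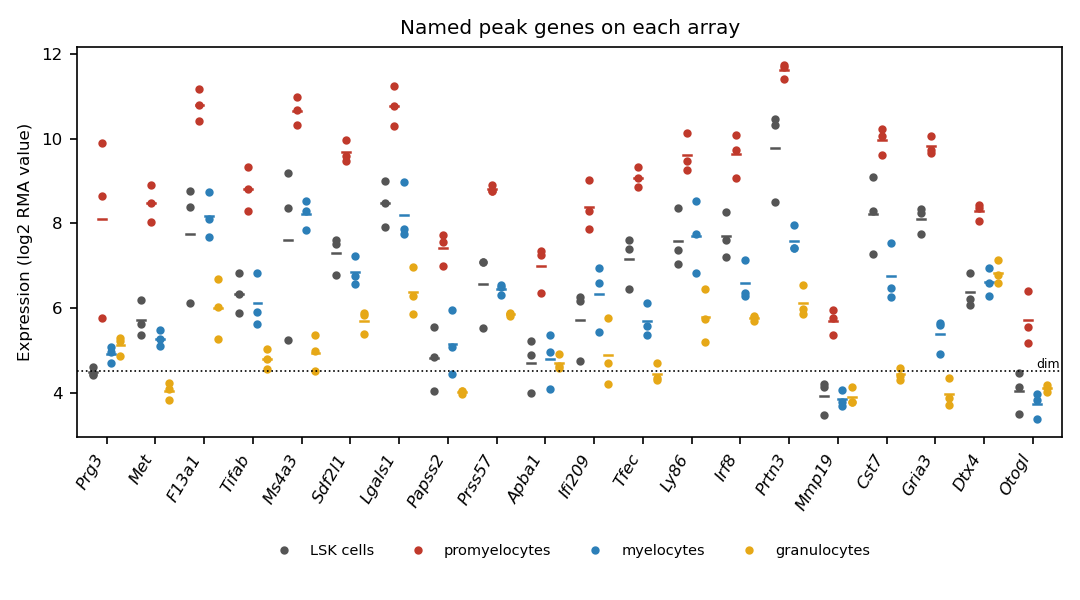
Log2 RMA values (y axis) of the 20 peak genes that had the greatest smaller difference from a neighbour and no overlap of arrays, with 1 point per array, a bar at the mean of 3 arrays, and colours for the 4 stages. The dotted line marks the dim level of 4.51. Promyelocyte points lie above LSK and myelocyte points for every gene shown, and Prg3 has the widest spread among promyelocyte arrays (5.76 to 9.90).

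A further group of peak genes folds secretory proteins and moves them across the membrane of the endoplasmic reticulum. Of 30 genes on this list 8 were peak genes (against 0.497% of all genes) and none was a dip gene, and the median size was 0.88. Promyelocytes had the highest mean of the 4 stages in 24 of the 30 genes (80.0%), against 23.1% of all genes tested. They had the lowest mean in 2 (6.67%), against 26.2% of all genes tested. All 8 peak genes are named here: Sdf2l1, Hyou1, Pdia6, Pdia4, Ssr4, Creld2, P4hb and Ostc.

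Sdf2l1, a partner of the chaperone BiP, had the largest difference of the group. It read 7.51, 7.62 and 6.78 on the LSK arrays, 9.97, 9.58 and 9.48 on the promyelocyte arrays and 7.24, 6.57 and 6.75 on the myelocyte arrays. The promyelocyte arrays were at least 1.86 above the highest LSK or myelocyte array, and the differences were 2.37 (SE 0.24, adjusted p = 1.33e-05) from LSK cells (5.17-fold) and 2.82 (SE 0.24, adjusted p = 1.29e-07) from myelocytes (7.06-fold). Hyou1, a large chaperone that exchanges the nucleotide of BiP, read 8.81, 8.99 and 8.22 on the LSK arrays, 10.32, 10.24 and 10.01 on the promyelocyte arrays and 8.63, 8.18 and 8.37 on the myelocyte arrays. Its promyelocyte arrays differed by no more than 0.31 among themselves, and its folds were 2.86 over LSK cells and 3.48 over myelocytes.

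Protein disulphide isomerases, which form and shuffle the disulphide bonds that granule proteases need, were represented by 3 genes of the list. Pdia6 read 10.23, 9.90 and 9.16 on the LSK arrays, 11.17, 11.16 and 11.15 on the promyelocyte arrays and 9.02, 8.48 and 8.89 on the myelocyte arrays. Pdia4 read 9.26, 9.06 and 8.79 on the LSK arrays, 10.32, 10.30 and 10.45 on the promyelocyte arrays and 8.08, 7.35 and 7.22 on the myelocyte arrays, and P4hb, the founding enzyme of the family, 10.34, 10.60 and 9.86 on the LSK arrays, 11.42, 11.31 and 11.28 on the promyelocyte arrays and 10.31, 10.14 and 10.16 on the myelocyte arrays. Promyelocyte values were the most even of the 3 stages for Pdia6, at 11.15 to 11.17, and P4hb had the smallest folds of the 3 genes, 2.10 over LSK cells and 2.19 over myelocytes. Of the 2 rows that the array holds for Pdia4, the other did not pass as a peak.

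Creld2, an endoplasmic reticulum protein with disulphide isomerase activity, was 2.22-fold higher than in LSK cells and 2.84-fold higher than in myelocytes. Ssr4, a subunit of the complex that accompanies the translocon, had folds of 2.26 and 3.00, and Ostc, a subunit of the oligosaccharyltransferase that attaches N-linked sugars, had folds of 2.11 and 2.07. These were the least settled calls of the group. Without LSK array 3 the differences from LSK cells were 0.89 for Ostc, 0.87 for P4hb and 0.88 for Ssr4, which left 5 peak genes on the list. Ostc also fell short without promyelocyte array 1 (0.94 from LSK cells), promyelocyte array 2 (0.99) or myelocyte array 2 (0.92 from myelocytes), Ssr4 without promyelocyte array 1 (0.96 from LSK cells) and Creld2 without promyelocyte array 3 (0.98 from LSK cells).

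Among the best-known members of the list, Hspa5 and Hsp90b1 moved the same way without reaching the fold of 2. Hspa5, which encodes BiP, had differences of 0.95 (SE 0.17, adjusted p = 0.00157) from LSK cells and 0.81 (SE 0.17, adjusted p = 0.00131) from myelocytes, and Hsp90b1 had 0.99 (SE 0.16, adjusted p = 0.000651) and 0.82 (SE 0.16, adjusted p = 0.000621). All 3 promyelocyte arrays of both genes lay above the other 6. Xbp1, the transcription factor of the unfolded protein response, did not follow: its promyelocyte mean of 9.03 lay between those of LSK cells (8.30) and myelocytes (9.36). Dnajb9 went the other way, with -0.68 (SE 0.25, adjusted p = 0.0887) from LSK cells and -0.98 (SE 0.25, adjusted p = 0.00465) from myelocytes. With no minimum fold, 17 of the 30 genes were higher in promyelocytes than in both neighbours at the adjusted p threshold.

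The endoplasmic reticulum stress response element, written as CCAAT and CCACG with 9 bases of any kind between them, was searched on both strands of RefSeq promoters (GRCm38.p6, 250 bases before to 50 after a gene's start, 15562 tested genes with a promoter). It was present in 21 of them (0.135%), in 7 of the 23 listed endoplasmic reticulum genes with a promoter (30.4%) and in 2 of the 77 peak genes with one (2.60%). Those 2 genes were Pdia6 and Creld2, and their elements are shown as those of the peak genes that carry it. Capitals mark the fixed letters of the element, on the forward strand in Pdia6 and as its reverse complement in Creld2.
Pdia6, chr12:17266479-17266521 (plus strand, element 98 to 80 bases before the start): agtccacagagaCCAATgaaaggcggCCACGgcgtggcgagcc
Creld2, chr15:88819508-88819550 (plus strand, element 126 to 108 bases before the start): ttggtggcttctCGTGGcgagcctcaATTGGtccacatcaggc

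Further peak genes of the secretory route stood outside the list and were singled out after their values were seen. They included Pdia5 and Erp29 (disulphide isomerase family), Rpn1 and Magt1 (oligosaccharyltransferase), Sec24d (the coat of vesicles that leave the endoplasmic reticulum), Tmed9 (a cargo receptor of that traffic) and Mgat5 and Pgm3 (synthesis of N-linked sugars and of their building block). Pdia5 read 6.97, 6.96 and 6.16 on the LSK arrays, 8.24, 8.08 and 8.16 on the promyelocyte arrays and 5.43, 5.01 and 5.42 on the myelocyte arrays. Its promyelocyte arrays spanned 0.16 and lay 2.75-fold over LSK cells and 7.33-fold over myelocytes. Sec24d had folds of 2.09 and 4.35, Rpn1 of 2.36 and 2.54, and Magt1 of 2.60 and 2.47.

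**Figure D3:**
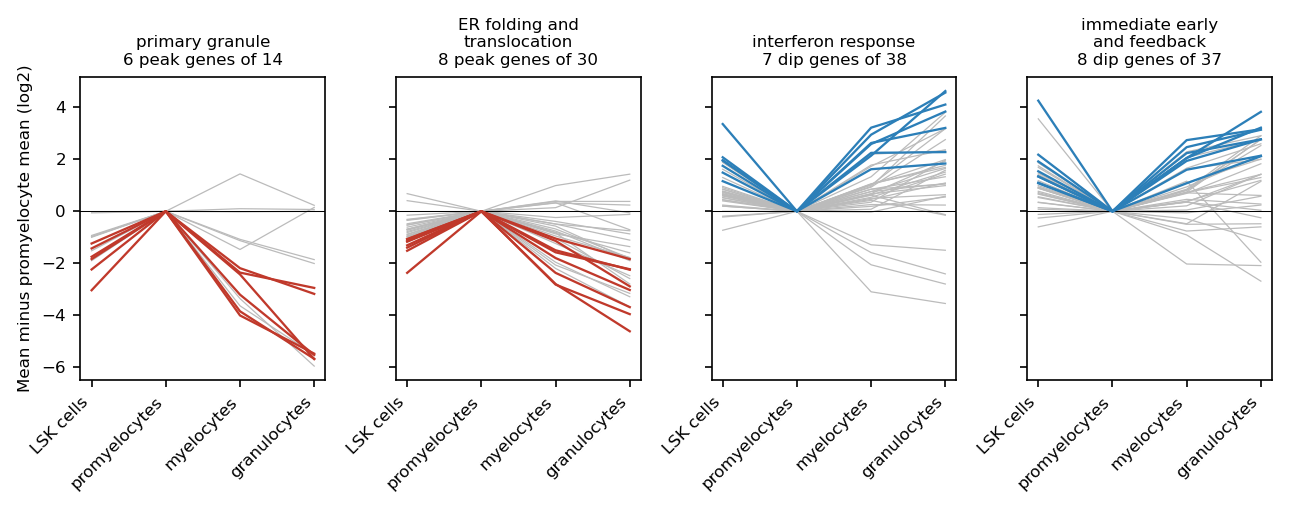
Group means of each listed gene relative to its promyelocyte mean (y axis, log2) at the 4 stages (x axis), for primary granule genes, endoplasmic reticulum genes, interferon response genes and immediate early genes. Red lines are peak genes (6 of 14 and 8 of 30), blue lines dip genes (7 of 38 and 8 of 37) and grey lines the other genes of each list.

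Transcription factors of granulopoiesis were a small part of the peak genes. Of 24 genes on that list 2 were peak genes (against 0.497% of all genes), Irf8 and Cebpa, and none was a dip gene, with a median size of -0.22. Irf8, which steers progenitors towards monocytes and dendritic cells and is low in mature neutrophils, read 7.61, 8.28 and 7.22 on the LSK arrays, 10.08, 9.07 and 9.73 on the promyelocyte arrays and 7.13, 6.29 and 6.36 on the myelocyte arrays. The promyelocyte arrays were above all others, by 3.79-fold over LSK cells and 8.19-fold over myelocytes, and granulocytes were lower still (mean 5.77). Cebpa, which drives the entry of progenitors into the myeloid lineage, read 7.00, 7.80 and 7.10 on the LSK arrays, 8.71, 8.63 and 9.11 on the promyelocyte arrays and 8.17, 7.21 and 6.79 on the myelocyte arrays. It was 2.86-fold above LSK cells and 2.69-fold above myelocytes, so that the means on both sides were nearly level (7.30 and 7.39).

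The other regulators of the lineage did not peak by this rule. Gfi1, a repressor required for neutrophil formation, was highest in promyelocytes but only 1.51-fold above myelocytes (0.60 (SE 0.14, adjusted p = 0.00316)), and Cebpe, which drives secondary granule genes, was 1.51 (SE 0.20, adjusted p = 0.000138) above LSK cells and already lower than in myelocytes (-2.14 (SE 0.20, adjusted p = 4.21e-07)). Tfec, a relative of the transcription factor Mitf, was also a peak gene. It read 7.60, 7.40 and 6.46 on the LSK arrays, 9.06, 8.85 and 9.32 on the promyelocyte arrays and 5.59, 5.38 and 6.12 on the myelocyte arrays, and its fold was 3.81 over LSK cells and 10.4 over myelocytes. Zbtb16, which encodes the zinc finger protein PLZF and was noticed after its values were seen, had folds of 2.44 and 4.07.

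Markers of monocytes were also among the peak genes. F13a1, Ly86 and Ms4a6c passed, 3 of 16 genes on the list (against 0.497% of all genes). Of the 16, 10 were called higher than in LSK cells (1.61% of all genes) and 4 higher than in myelocytes (9.87%). F13a1, which encodes the A chain of coagulation factor XIII, read 8.38, 8.76 and 6.12 on the LSK arrays, 11.16, 10.42 and 10.79 on the promyelocyte arrays and 8.75, 7.69 and 8.11 on the myelocyte arrays. LSK array 3 was the lowest of its group by more than 2 log2 units, and the folds were 8.22 over LSK cells and 6.09 over myelocytes. Ly86, which encodes the partner of the receptor CD180, read 7.37, 8.36 and 7.05 on the LSK arrays, 10.14, 9.48 and 9.25 on the promyelocyte arrays and 8.52, 7.76 and 6.83 on the myelocyte arrays. Its folds were 4.09 and 3.80, and in the gene order of the reference annotation it is the next tested gene to F13a1 on chromosome 13. Ms4a6c was 1.43 (SE 0.45, adjusted p = 0.0201) above myelocytes, with overlapping arrays, and this call was lost without promyelocyte array 1 (1.08, adjusted p = 0.107), myelocyte array 2 (1.40, adjusted p = 0.0538) or myelocyte array 3 (0.99, adjusted p = 0.114).

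The mean over the 16 monocyte markers was 6.32 to 7.12 on the LSK arrays, 7.77 to 8.46 on the promyelocyte arrays and 7.25 to 8.33 on the myelocyte arrays. Csf1r, the receptor gene that defines the lineage, had 9.30, 8.61 and 8.83 on the promyelocyte arrays and 8.76, 8.30 and 7.11 on the myelocyte arrays, a difference of 0.86 (SE 0.36, adjusted p = 0.0806). Arrays of sorted bulk samples cannot tell a larger share of cells of a type from more RNA in each cell, and the part of monocyte progenitors in the peak of Irf8 and of these genes was not tested.

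Eosinophil granule genes had the largest sizes of all, and they rested on unequal arrays. Epx (eosinophil peroxidase), Prg2 (major basic protein) and Prg3, its neighbour on chromosome 2, were peak genes. They were 3 of 8 eosinophil markers measured (against 0.497% of all genes). Epx read 9.81, 5.06 and 10.19 on the promyelocyte arrays, with 4.16, 3.99 and 4.22 on the LSK arrays and 4.62, 5.10 and 4.84 on the myelocyte arrays. Prg2 read 11.37, 6.97 and 11.46 on the promyelocyte arrays, 6.10, 5.93 and 5.56 on the LSK arrays and 6.55, 7.26 and 6.90 on the myelocyte arrays, and Prg3 read 8.64, 5.76 and 9.90, 4.61, 4.44 and 4.42 and 4.72, 4.98 and 5.09 in the same order. Promyelocyte array 2 lay close to the myelocyte arrays for all 3 genes, and arrays 1 and 3 lay more than 3 log2 units above them.

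The sizes were 3.86 (SE 0.76) for Epx, 3.55 for Prg2 and 3.39 for Prg3. Without promyelocyte array 1 the difference of Prg2 from myelocytes was 2.31 (adjusted p = 0.0685) and without array 3 it was 2.27 (adjusted p = 0.067), whereas Epx and Prg3 stayed peak genes when any single array of the 12 was left out. The mean over the 8 eosinophil markers was 7.51, 5.41 and 7.94 on promyelocyte arrays 1, 2 and 3, against 4.59 to 4.70 on the LSK arrays and 5.51 to 6.01 on the myelocyte arrays. Of the 8 markers, 5 were called higher than in LSK cells (1.61% of all genes). Against myelocytes 3 were called higher (9.87%) and 2 lower (7.61%). Il5ra and Ccr3, receptor genes that define eosinophils, were dim in promyelocytes (means of 3.96 and 4.14). The difference of Ccr3 from myelocytes was -1.28 (SE 0.28, adjusted p = 0.00161). How many eosinophil precursors the gate held was not tested.

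**Figure D4:**
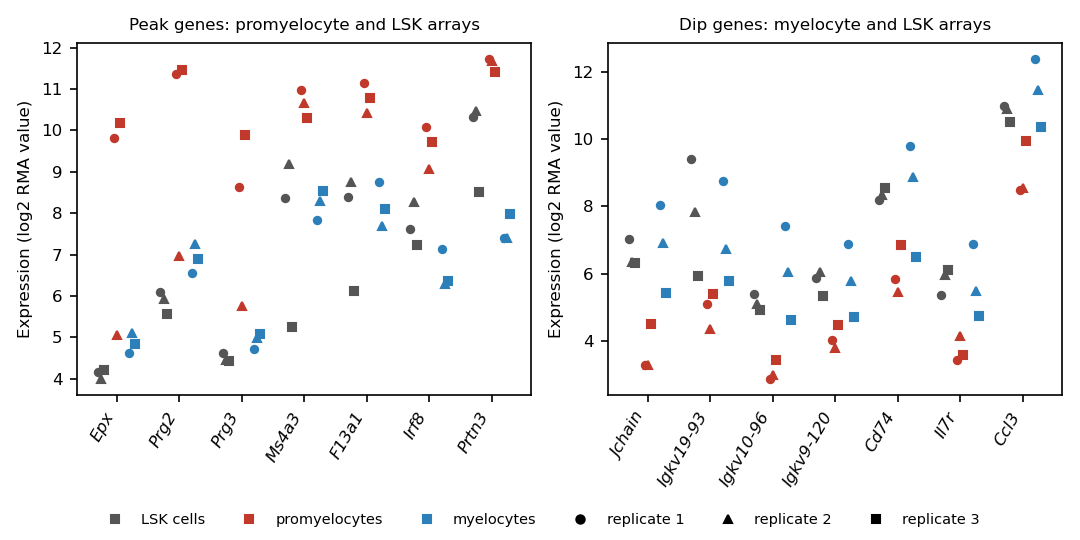
Log2 RMA values (y axis) of members whose arrays disagree within a stage, with colours for the stage and shapes for replicates 1 to 3, beside Irf8 and Prtn3 for comparison. Among peak genes (left) promyelocyte array 2 is low for Epx, Prg2 and Prg3 and LSK array 3 is low for Ms4a3 and F13a1, and among dip genes (right) array 1 is the highest and array 3 the lowest of the myelocyte arrays.

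The remaining peak genes spanned surface receptors, metabolism and the cell cycle. Met, the receptor of hepatocyte growth factor, had the largest smaller difference of any peak gene outside the eosinophil group. It read 5.62, 6.20 and 5.37 on the LSK arrays, 8.91, 8.03 and 8.48 on the promyelocyte arrays and 5.49, 5.10 and 5.27 on the myelocyte arrays, and the promyelocyte arrays lay 6.70-fold over LSK cells and 9.08-fold over myelocytes. Gria3, a subunit of glutamate receptors of the AMPA type, read 8.33, 8.24 and 7.76 on the LSK arrays, 10.07, 9.66 and 9.74 on the promyelocyte arrays and 5.66, 4.93 and 5.61 on the myelocyte arrays. Its fold over myelocytes, 21.4, was the largest among the 99 peak genes, against 3.28 over LSK cells. Lgals1, which encodes galectin 1, read 8.49, 9.01 and 7.92 on the LSK arrays, 11.24, 10.76 and 10.29 on the promyelocyte arrays and 8.98, 7.87 and 7.76 on the myelocyte arrays, with folds of 4.89 and 5.90.

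Of the remaining genes among the 20 leading peak genes, Tifab had folds of 5.51 and 6.42, Papss2, which makes the sulphate donor of the cell, 6.04 and 4.78, Apba1 4.85 and 4.53, Ifi209, named for its activation by interferon, 6.35 and 4.20, and Dtx4, an E3 ligase named for its role in Notch signalling, 3.77 and 3.19. Mmp19 and Otogl were dim in LSK cells, myelocytes and granulocytes and had promyelocyte means of 5.70 and 5.72, so no fold is given for them. Dim means occurred in LSK cells for 10 of the 99 peak genes, in myelocytes for 10 and in granulocytes for 20.

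Most ribosome biogenesis and DNA replication genes were called higher than in myelocytes without being called different from LSK cells. Over all genes tested 9.87% were called higher than in myelocytes, 1.61% higher than in LSK cells and 0.497% higher than in both. Of 20 ribosome biogenesis genes 19 were called higher than in myelocytes. Only Rrs1, an assembly factor of the large subunit, was also called higher than in LSK cells, with folds of 2.61 and 6.50. Of 20 DNA replication genes 18 were called higher than in myelocytes and Cdc6, which loads the replicative helicase, was the peak gene (2.13-fold and 3.86-fold). Of 17 genes of amino acid synthesis and transport 9 were called higher than in myelocytes and Phgdh, the first enzyme of serine synthesis, was the peak gene (2.21-fold and 12.7-fold). The calls of Cdc6 and Phgdh against LSK cells rested on single arrays: without LSK array 2 the difference from LSK cells was 0.89 for both Cdc6 and Phgdh, without LSK array 3 it was 1.00 for Phgdh (adjusted p = 0.0642), and without promyelocyte array 2 it was 0.98 for Cdc6.

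None of 19 mitosis genes, with a median difference from myelocytes of 0.30, and none of 9 heme synthesis genes was a member. Among metabolic genes chosen after their values were seen, Slc16a1, a lactate and pyruvate transporter, had folds of 2.14 and 13.9, and Tmem97 of 3.03 and 9.19. Fdps, an enzyme of the cholesterol pathway, read 6.64, 7.00 and 6.37 on the LSK arrays, 8.07, 8.10 and 8.03 on the promyelocyte arrays and 6.75, 6.61 and 6.98 on the myelocyte arrays. Its promyelocyte arrays spanned 0.07, with folds of 2.63 and 2.43.

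Among the dip genes, antiviral and interferon response genes formed a group with a common course. Of 38 measured, 7 were dip genes (against 0.582% of all genes) and none was a peak gene, with a median size of -0.77. The promyelocyte mean was the lowest of the 4 stages in 30 of the 38 (78.9%), against 26.2% of all genes tested. The 7 were Rtp4, Ddx58, Irf7, Oas2, Oas3, Parp12 and Ifitm3. Of the 38, 11 were called lower than in LSK cells (2.75% of all genes). Against myelocytes 15 were called lower (7.61% of all genes) and 4 higher (9.87%).

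Ddx58, which encodes the cytosolic RNA sensor RIG-I, read 8.07, 8.04 and 8.65 on the LSK arrays, 6.02, 6.46 and 6.03 on the promyelocyte arrays and 8.82, 8.81 and 8.75 on the myelocyte arrays. All promyelocyte arrays were below the other 6 by at least 1.58, with differences of -2.08 (SE 0.17, adjusted p = 4.57e-06) and -2.63 (SE 0.17, adjusted p = 1.07e-08). Irf7, the factor that amplifies type I interferon, read 6.75, 6.96 and 7.21 on the LSK arrays, 4.81, 5.46 and 4.73 on the promyelocyte arrays and 7.76, 7.71 and 7.31 on the myelocyte arrays. Its folds were 3.93 below LSK cells and 6.04 below myelocytes. Rtp4, a chaperone of surface receptors induced by interferon, read 7.67, 7.89 and 8.63 on the LSK arrays, 4.15, 5.43 and 4.53 on the promyelocyte arrays and 6.62, 7.26 and 6.64 on the myelocyte arrays, and was the member of the list with the largest fold below LSK cells (10.3).

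Oas2 and Oas3 encode enzymes that make the activator of RNase L when they meet double-stranded RNA. Oas2 read 6.33, 6.58 and 6.86 on the LSK arrays, 4.71, 4.82 and 4.39 on the promyelocyte arrays and 7.30, 8.20 and 8.08 on the myelocyte arrays. Oas3 read 6.03, 6.37 and 6.73 on the LSK arrays, 4.76, 5.33 and 4.59 on the promyelocyte arrays and 7.65, 8.05 and 7.81 on the myelocyte arrays. They lie side by side on chromosome 5, with a further dip gene, Oas1c, 1 tested gene away. Ifitm3, a membrane protein that blocks viral entry, read 9.60, 9.91 and 8.93 on the promyelocyte arrays against 10.70, 10.38 and 10.83 on the LSK arrays and 11.80, 11.74 and 11.65 on the myelocyte arrays. Without promyelocyte array 3 its difference from LSK cells was -0.88, short of the fold of 2.

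Promyelocyte levels of these genes were followed by higher values in the later stages. Granulocyte means were 9.38 for Ddx58, 8.84 for Irf7, 9.33 for Rtp4, 8.75 for Oas2 and 9.46 for Oas3, each above the myelocyte mean. The mean over all 38 genes was 7.08 to 7.40 on the LSK arrays, 6.12 to 6.56 on the promyelocyte arrays, 7.00 to 7.28 on the myelocyte arrays and 7.69 to 8.00 on the granulocyte arrays, with no overlap between promyelocytes and any other stage. That mean includes the 7 dip genes, chosen on the LSK, promyelocyte and myelocyte arrays, and the separation only describes the list. With no minimum fold, 19 of the 38 genes were lower than in both neighbours at the adjusted p threshold.

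The interferon-stimulated response element, searched on both strands as a pair of GAAA with 2 bases of any kind between them, was present in the promoters of 605 of the 15562 tested genes (3.89%), in 9 of the 83 dip genes with a promoter (10.8%), in 0 of the 77 peak genes with one and in 14 of the 30 listed interferon response genes with one (46.7%). Neither this element nor the stress element contains the other. It lay wholly upstream of the start in Oas3, Oas1c, Stat4, Ddx60, Irf2, Plxnc1 and Slfn5. The stretches of the first 3 are shown as examples, Oas1c and Stat4 being outside the list. Capitals mark the fixed letters, and in Oas1c they are the reverse complement of the element and overlap with another match 108 to 99 bases before the start.
Oas3, chr5:120777713-120777746 (minus strand, 75 to 66 bases before the start): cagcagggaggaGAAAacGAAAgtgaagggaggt
Oas1c, chr5:120812607-120812640 (minus strand, 114 to 105 bases before the start): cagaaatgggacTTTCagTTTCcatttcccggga
Stat4, chr1:52008131-52008164 (plus strand, 97 to 88 bases before the start): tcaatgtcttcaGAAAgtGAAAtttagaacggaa

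Further dip genes with known ties to interferon were noticed after their values were seen: Samd9l, Ddx60, Epsti1, Ube2l6, Irf2, Slfn5 and Tlr7. The peak gene Ifi209, also outside the list, went the other way. Samd9l, an antiviral restriction factor, was among the 20 leading dip genes and read 6.48, 5.97 and 6.66 on the LSK arrays, 4.64, 4.80 and 3.76 on the promyelocyte arrays and 9.11, 9.15 and 9.12 on the myelocyte arrays. Its promyelocyte mean of 4.40 was dim, so that the difference from myelocytes, -4.73 (SE 0.24, adjusted p = 7.75e-10), is given without a fold. Ube2l6, the conjugating enzyme of ISG15, read 7.37, 6.79 and 7.25 on the LSK arrays, 5.25, 5.67 and 5.64 on the promyelocyte arrays and 7.83, 8.16 and 7.75 on the myelocyte arrays, with folds of 3.07 below LSK cells and 5.26 below myelocytes. Irf2, a member of the interferon regulatory factors, was 2.44-fold below LSK cells and 3.02-fold below myelocytes, a direction opposite to that of its relative Irf8.

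Immediate early genes and their feedback inhibitors, which respond within minutes to growth factors and stress, formed the other large group of dips. Of 37 measured, 8 were dip genes (against 0.582% of all genes) and none was a peak gene, with a median size of -0.90. Promyelocytes had the lowest mean of the 4 stages in 26 (70.3%), against 26.2% of all genes tested. Nr4a1, an orphan nuclear receptor of this class, had the largest size of all dip genes, -3.50. It read 11.01, 11.19 and 9.14 on the LSK arrays, 5.56, 5.86 and 7.13 on the promyelocyte arrays and 8.76, 9.18 and 8.86 on the myelocyte arrays. The folds were 19.2 below LSK cells and 6.71 below myelocytes, and the granulocyte arrays read 8.73, 9.38 and 9.94.

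Zfp36, which encodes the mRNA decay factor tristetraprolin, read 11.04, 11.06 and 10.58 on the LSK arrays, 8.23, 8.45 and 9.50 on the promyelocyte arrays and 10.67, 10.69 and 10.61 on the myelocyte arrays. Ier5 read 7.68, 7.55 and 6.57 on the LSK arrays, 5.80, 5.76 and 6.19 on the promyelocyte arrays and 8.11, 8.03 and 7.76 on the myelocyte arrays. Rgs2, a brake on G protein signalling, read 10.42, 10.07 and 8.79 on the LSK arrays, 8.44, 8.25 and 7.96 on the promyelocyte arrays and 9.97, 9.86 and 9.62 on the myelocyte arrays. For these 3 genes the promyelocyte arrays lay below all LSK and myelocyte arrays, with folds of 4.50, 2.55 and 2.92 below LSK cells and of 3.82, 4.14 and 3.03 below myelocytes. Egr1, Klf6, Nfkbiz and Btg2 completed the 8. In Egr1 promyelocyte array 3 (7.95) lay within the range of the myelocyte arrays (7.82 to 8.28), and in Klf6 and Nfkbiz it lay above LSK array 3 (8.22 against 7.93, and 8.18 against 7.93).

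The group as a whole had uneven arrays on both sides of the comparison. The mean over the 37 genes was 8.97, 8.94 and 7.69 on LSK arrays 1, 2 and 3 and 7.19, 7.19 and 7.79 on promyelocyte arrays 1, 2 and 3, so that LSK array 3 lay below promyelocyte array 3. The myelocyte arrays had 8.10 to 8.38. When LSK array 1, LSK array 2, promyelocyte array 1 or promyelocyte array 2 was left out, 5 of the 37 were dip genes, and without LSK array 3 the count was 11. Klf6 lost its call in each of those 4 cases (adjusted p against LSK cells 0.0808 to 0.136), as did Nfkbiz (0.0627 to 0.0848). Egr1 lost its call without promyelocyte array 1 (-0.79 against myelocytes), promyelocyte array 2 (-0.87) or myelocyte array 1 (-0.96). Btg2 lost it without LSK array 1 (-0.81 against LSK cells), LSK array 2 (-0.88) or promyelocyte array 3 (-0.94).

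Fos, Fosb, Jun and Dusp1, the best-known genes of the class, were lower than in LSK cells without being dip genes. Fos differed by -1.75 (SE 0.36, adjusted p = 0.00384) from LSK cells and by -0.82 (SE 0.36, adjusted p = 0.098) from myelocytes, and Dusp1 by -1.41 (SE 0.35, adjusted p = 0.0128) and -0.85 (SE 0.35, adjusted p = 0.0732). The CRE, written TGACGTCA and equal to its own reverse complement, to which factors of the CREB and ATF family bind, was present in 2.72% of all promoters and in 2 of the 83 dip genes with a promoter (2.41%), which is near the background. On the immediate early list it was present in 3 of the 31 genes with a promoter (9.68%) and in 1 of the 6 dip genes with one. Csrnp1, Kdm6b, Nfkbid, Sik1 and Bhlhe40 were further dip genes of related function, named after their values were seen, with folds of 2.09 to 2.85 below LSK cells and 2.14 to 6.10 below myelocytes. In Nfkbid and Bhlhe40 promyelocyte arrays overlapped with LSK array 3. Nfkbid passed narrowly, with adjusted p = 0.0319 against LSK cells and 0.0472 against myelocytes.

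**Figure D5:**
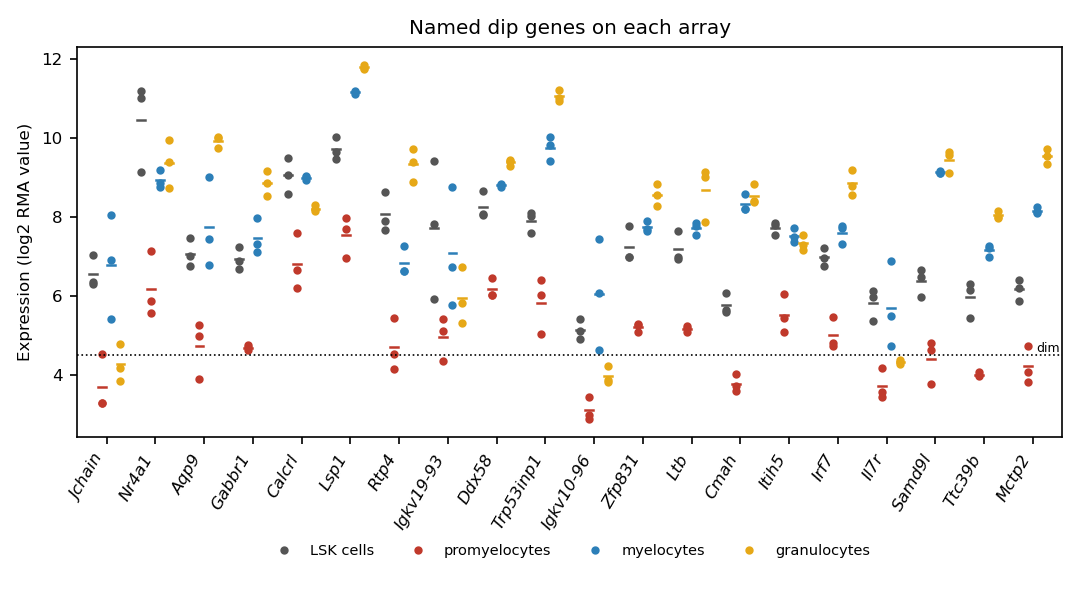
Log2 RMA values (y axis) of the 20 dip genes that had the greatest smaller difference from a neighbour and no overlap of arrays, with 1 point per array, a bar at the mean of 3 arrays and colours for the 4 stages. The dotted line marks the dim level of 4.51. Promyelocyte points lie below LSK and myelocyte points for every gene, the promyelocyte mean is dim for several, and granulocyte points lie highest for many of them but not for Jchain, Il7r and the Igkv genes.

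Some genes of the B cell and plasma cell lineage were also dips, most of them from outside the list of B cell markers. Here the myelocyte arrays were uneven. Jchain, the joining chain of secreted IgM and IgA, read 7.03, 6.34 and 6.31 on the LSK arrays, 3.29, 3.28 and 4.52 on the promyelocyte arrays and 8.04, 6.90 and 5.42 on the myelocyte arrays. Igkv10-96, an immunoglobulin kappa variable gene, read 5.41, 5.11 and 4.91 on the LSK arrays, 2.87, 2.98 and 3.45 on the promyelocyte arrays and 7.43, 6.06 and 4.63 on the myelocyte arrays. Both had dim promyelocyte means (3.70 and 3.10), and in both the myelocyte arrays spread over more than 2.6 log2 units, highest on array 1 and lowest on array 3. The other 2 Igkv dip genes, which lie in the same cluster on chromosome 6, had the same order of myelocyte arrays (8.75, 6.74 and 5.77, and 6.87, 5.77 and 4.72). The first of these lost its call without LSK array 1 or 2, promyelocyte array 1 or 2, or myelocyte array 1 or 2, and its second row on the array did not pass. Near-identical kappa genes can share probes, and whether the 3 genes are separate measurements was not tested.

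Il7r, the interleukin 7 receptor of lymphoid progenitors, was the dip gene among 11 B cell markers (against 0.582% of all genes). It read 5.37, 5.96 and 6.11 on the LSK arrays, 3.44, 4.16 and 3.57 on the promyelocyte arrays and 6.87, 5.48 and 4.74 on the myelocyte arrays. Of the 11 B cell markers 6 were called lower than in LSK cells (2.75% of all genes). Against myelocytes 1 was called lower (7.61% of all genes) and 1 higher (9.87%). The higher one was Cd79b, with a difference of 1.48 (SE 0.26, adjusted p = 0.000275). The mean over the B cell markers was 5.60 to 6.29 on the LSK arrays, 4.11 to 4.45 on the promyelocyte arrays and 4.24 to 4.62 on the myelocyte arrays. Cd74, the invariant chain of class II molecules, was the dip gene among 14 dendritic cell markers (against 0.582% of all genes). It read 8.20, 8.33 and 8.54 on the LSK arrays, 5.84, 5.47 and 6.85 on the promyelocyte arrays and 9.78, 8.86 and 6.51 on the myelocyte arrays. Myelocyte array 3 lay below promyelocyte array 3, and its call ended without LSK array 3 (adjusted p = 0.0675), promyelocyte array 1 (adjusted p = 0.0608) or promyelocyte array 2 (adjusted p = 0.0698).

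The same order of the myelocyte arrays was present in markers of other cell types. The mean over 12 basophil and mast cell markers was 8.36, 7.38 and 6.54 on myelocyte arrays 1, 2 and 3, against 5.74 to 6.95 on the promyelocyte arrays, and the mean over 16 monocyte markers was 8.33, 7.90 and 7.25. No basophil or mast cell marker was a member. The contribution of other cells in the myelocyte sort to these dips was not tested.

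Among other leading dip genes, Lsp1, an actin-binding protein of leukocytes, read 9.47, 9.63 and 10.02 on the LSK arrays, 7.98, 7.68 and 6.95 on the promyelocyte arrays and 11.19, 11.17 and 11.10 on the myelocyte arrays. It was 4.50-fold lower than in LSK cells and 12.3-fold lower than in myelocytes. Trp53inp1, a p53 target that promotes autophagy, read 8.02, 7.58 and 8.09 on the LSK arrays, 6.01, 6.41 and 5.03 on the promyelocyte arrays and 10.02, 9.83 and 9.41 on the myelocyte arrays. The folds were 4.22 and 15.3, and it was the dip gene among 16 p53 targets (against 0.582% of all genes). Cmah, the enzyme that makes N-glycolylneuraminic acid, read 5.58, 5.65 and 6.06 on the LSK arrays, 3.71, 3.59 and 4.01 on the promyelocyte arrays and 8.21, 8.20 and 8.58 on the myelocyte arrays, with a dim promyelocyte mean of 3.77. Its neighbour on chromosome 13, Ripor2, was also a dip gene (2.08-fold and 4.83-fold).

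Calcrl, the receptor of adrenomedullin, read 9.07, 8.58 and 9.49 on the LSK arrays, 6.65, 7.59 and 6.20 on the promyelocyte arrays and 8.92, 9.03 and 9.01 on the myelocyte arrays. Its means on both sides were nearly level (9.05 and 8.99), and the folds were 4.70 and 4.51. Gabbr1, a subunit of the GABA type B receptor, read 6.87, 6.69 and 7.23 on the LSK arrays, 4.62, 4.70 and 4.75 on the promyelocyte arrays and 7.98, 7.32 and 7.10 on the myelocyte arrays, with folds of 4.73 and 6.86. Aqp9, a channel for water and glycerol, had folds of 5.10 and 8.11, with uneven myelocyte arrays of 9.01, 7.43 and 6.77. Ltb, a lymphotoxin subunit, had folds of 4.01 and 5.85. Zfp831 had folds of 4.09 and 5.81 and Itih5 of 4.59 and 3.99, while Mctp2 and Ttc39b were dim in promyelocytes. A dim promyelocyte mean was found in 19 of the 116 dip genes, and 1 of them, P2ry10, was dim at all 4 stages.

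Of 25 neutrophil receptor and late granule genes 22 were called lower than in myelocytes (7.61% of all genes). The dip gene among the 25 (against 0.582% of all genes) was Padi4, which citrullinates histones in neutrophils. It read 7.30, 6.50 and 7.33 on the LSK arrays, 5.19, 6.04 and 5.31 on the promyelocyte arrays and 10.20, 10.17 and 9.98 on the myelocyte arrays. Against LSK cells 5 of the 25 were called higher in promyelocytes (1.61% of all genes) and Padi4 alone lower (2.75% of all genes). Slc2a3, the neutrophil glucose transporter, was the dip gene among 16 glycolysis genes (against 0.582% of all genes). It read 8.76, 7.79 and 8.25 on the LSK arrays, 6.84, 7.33 and 6.45 on the promyelocyte arrays and 11.26, 11.20 and 11.05 on the myelocyte arrays. The folds were 2.63 and 19.7. Il18r1 and Il18rap, the neighbouring genes of the interleukin 18 receptor on chromosome 1, were named after their values were seen, and Il18rap read 7.91, 7.39 and 7.62 on the LSK arrays, 6.30, 6.14 and 6.19 on the promyelocyte arrays and 10.50, 10.47 and 10.11 on the myelocyte arrays. Cd33, a sialic acid receptor of myeloid cells, named in the same way, had the largest fold below myelocytes of all dip genes without a dim mean, 31.5, against 2.31 below LSK cells.

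Txnip, an inhibitor of glucose uptake, and Tob1, which restrains proliferation, were the dip genes among 19 FoxO and quiescence genes (against 0.582% of all genes). Of the 19, 11 were called lower than in myelocytes (7.61% of all genes). Txnip read 10.49, 10.46 and 10.98 on the LSK arrays, 8.86, 9.14 and 8.94 on the promyelocyte arrays and 10.69, 10.38 and 9.67 on the myelocyte arrays. Tob1 had folds of 2.21 and 8.07. A list of 14 genes that the study predicted as miRNA targets high in LSK cells was chosen on these samples and is no independent evidence of direction. Of these, 2 were dip genes (Trp53inp1 and Zfp36, against 0.582% of all genes). All 14 were called lower than in LSK cells (2.75% of all genes). Against myelocytes 3 were called higher (9.87%) and 2 lower (7.61%). Nkg7, a granule membrane protein of cytotoxic cells, was the peak gene among 11 T and NK cell markers (against 0.497% of all genes). Its folds were 2.68 and 10.4, and its difference from LSK cells was 0.98 without LSK array 3. No member was found among 19 cytokine receptors, 6 NADPH oxidase genes, 13 class I presentation genes, 8 erythroid, 6 megakaryocyte and 10 stromal markers, 8 sort antigens or 15 rows for precursors of miR-17-92 and related clusters.

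The rule did not use the granulocyte arrays, though both comparisons of them share arrays with it, and most members were not called between granulocytes and myelocytes. Against myelocytes, 32 peak genes were called lower in granulocytes and 1 higher, with 66 not called, where 5.96% of all genes were called lower and 2.35% higher. Of the dip genes 34 were called higher and 8 lower, with 74 not called. Against promyelocytes, 94 of the 99 peak genes were called lower in granulocytes (16.3% of all genes) and 105 of the 116 dip genes higher (10.1% of all genes). Because the rule had set promyelocytes beyond LSK cells and myelocytes, only the granulocyte mean was free in a ranking of the 4 means. Over all genes tested, promyelocytes were highest in 4596 of the 6469 above both neighbours and lowest in 5215 of the 5564 below both. Promyelocytes had the highest of the 4 means in 98 peak genes and the lowest in all 116 dip genes. The exception was Fgl2, which encodes a fibrinogen-like protein of myeloid cells and read 7.60, 7.16 and 6.69 on the LSK arrays, 8.45, 8.41 and 8.00 on the promyelocyte arrays and 6.31, 6.35 and 6.19 on the myelocyte arrays, with 9.89, 9.66 and 9.23 on the granulocyte arrays.

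At the edge of the rule, Tex2, Fndc3b and Pcyox1l entered the peak genes with a smaller difference of 1.01 each, and Sh2b2 (1.00), Erlin1 (0.99) and Qsox2 (0.99) fell just outside. Stk17b, Map4k4 and Fam110c were the dip genes nearest to the edge, the last with -1.01, and Isg20, Ypel3 and Map3k8 lay just outside. Smaller differences of at least 4-fold were present in 13 peak genes and 14 dip genes. Of 12 members with more than 1 row on the array, 4 had every row called the same way: Otogl, Tmem97, Plp2 and Ttc39b.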

How the data were processed

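Total RNA of 12 sorted samples had been hybridised by the authors to 1-colour Affymetrix Mouse Gene 1.0 ST arrays, 3 per population. The authors deposited log2 values from justRMA, whose version is not given in the sources read for this work. It corrects the background, applies quantile normalization and summarises by median polish, so the values are relative and probe sets cannot be ranked against each other. No further normalization was applied. The labels call the arrays of a population biological replicates without naming animals, so p-values cover only the spread among these arrays, part of which may be technical. Precision is limited by having 3 arrays per population, with a median within-group SD of 0.21.

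Of 34760 rows, 21640 had 1 gene symbol and were used. Rows with several symbols (1321) or none (11799) were not tested. The row with the highest mean over all arrays stood for each of the 954 genes with several rows, which left 19937 genes. In R 4.3.3, limma 3.58.1 (lmFit, eBayes) fitted 4 group means to all 12 arrays (8 residual degrees of freedom), and p-values were adjusted over all genes by the Benjamini-Hochberg method. The labels do not say whether arrays with the same replicate number are pairs, and the main fit did not pair them. Deviations from the group means were correlated between same-numbered arrays of the 3 stages. These correlations were 0.032 to 0.253 for replicate 1, -0.253 to 0.118 for replicate 2 and 0.017 to 0.196 for replicate 3.

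The members, gene lists and alternatives were chosen with earlier results of these data known. Named were the 20 peak and 20 dip genes with the greatest smaller difference and no overlap of arrays, the members of the lists, and the 3 genes on either side of the threshold. Members known only as predicted models (1 peak, 1 dip gene) were counted and not named. Alternatives covered centring, quantile normalization, the dim filter, several rows, unadjusted p, the minimum fold, the arrays fitted, the eBayes settings, a replicate block and each array left out. The script was tested on simulated data with known changes. Promoter sequences were RefSeq's (GRCm38.p6), matched for 160 of the 215 members. The coordinates of the array's probe sets, and the study's miRNA measurements, were not used here.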

Additional observations from a re-analysis of the deposited data

How the results depend on the processing

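Direction held under all 22 alternatives for the 73 leading or listed peak and dip genes, and none reversed. Many of the alternatives could not change a direction, because they leave the differences from both neighbours as they are. These were the dim filter, unadjusted p, no minimum fold, the 9-array fit, the eBayes settings, the replicate block and each granulocyte array left out. Unadjusted p and no minimum fold could also only keep calls. The genes at the threshold and those named after their values were seen were not included. The count of peak genes was 118 after median centring, 92 after 75th percentile centring, 117 after quantile normalization, 101 without dim genes, 99 with the mean of all rows, 106 at unadjusted p, 97 in a fit of the 9 arrays of the 3 stages and 94 with a trended, robust eBayes. The count of dip genes in the same order was 102, 135, 128, 115, 119, 121, 111 and 111. Centring on the median moved the median of all genes to 0.14 (promyelocytes minus LSK cells, 0.04 as reported), and 75th percentile centring moved that of promyelocytes minus myelocytes to -0.11 (-0.01 as reported). With no minimum fold the counts were 546 peak and 464 dip genes, 17 endoplasmic reticulum peak genes and 19 interferon response dip genes, a consequence of the rule itself.

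Leaving out each array in turn gave 74 (without LSK array 3) to 155 (without promyelocyte array 3) peak genes, of which 74 and 94 were among the 99, and 106 to 124 dip genes. Endoplasmic reticulum peak genes ranged from 5 to 10, immediate early dip genes from 5 to 11, interferon response dip genes from 6 to 10 and granule peak genes from 5 to 9. The cause was not tested. With the trended, robust eBayes Cd74, an Igkv gene, Klf6, Mpo, Ms4a3, Ms4a6c and Prg2 lost their calls, with median centring Btg2, Klf6 and Ostc. A fit with a replicate block, which treats same-numbered arrays as pairs, gave 103 peak and 116 dip genes. Of these, 99 and 115 were shared with the fit without the block, and none of those 73 genes lost its call.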

Other observations

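Some rows that could not be assigned to a single gene also met the rule. In a fit over all rows, 99 of the 21640 rows with 1 symbol met the rule for peaks and 116 that for dips. Of 1321 rows with several symbols, 2 met the rule for peaks and 9 that for dips, and of 11799 rows with no symbol 14 met the rule for peaks and 41 that for dips.

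Peak and dip genes also occurred next to each other in the gene order of the reference annotation. The adjacent pairs with a common direction were F13a1 and Ly86, Prg2 and Prg3, Il17rb and Chdh, Il18r1 and Il18rap, Oas2 and Oas3, Cmah and Ripor2, Carns1 and Tbc1d10c, and the kappa genes, and the adjacent pairs with opposite directions were Ctse (dip) and Rab7b (peak) on chromosome 1 and Tfec (peak) and Tes (dip) on chromosome 6.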
